A study of Bos taurus with 9 samples.

Results

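Butyrate-only H3K27ac regions are stretches of the bovine genome in which acetylation of lysine 27 of histone H3 (H3K27ac) was called as a peak in rumen tissue after butyrate treatment, while neither H3K27ac before treatment nor acetylation of lysine 9 (H3K9ac) in either condition was called there. They were selected on the peak calls themselves. Overlapping peaks of the 4 acetylation lists (H3K9ac and H3K27ac, control and butyrate) were merged on chromosomes 1 to 29 when they shared at least 1 bp, and a merged region was retained when its only peaks were butyrate H3K27ac peaks. Of 46982 merged regions, 10028 (21.3%) met this rule. Their number is therefore a result of the selection and is given as a description.

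H3K27ac marks active enhancers and promoters, and H3K9ac is found mainly at promoters of transcribed genes. Both are placed by histone acetyltransferases and removed by histone deacetylases. Butyrate, a short-chain fatty acid made by microbial fermentation in the rumen and used by the rumen epithelium as fuel, inhibits histone deacetylases. RNA polymerase II (RNA pol II) transcribes protein-coding genes, and trimethylated lysine 9 of histone H3 (H3K9me3) marks heterochromatin and silenced repeats.

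The samples were rumen tissue of cattle, of the breed spelled Hostein in the labels. They fall into a control group, taken before treatment, and a butyrate group, taken after 24 h of butyrate, which the methods of the study describe as an infusion with rumen biopsies. Whether both came from the same animal is not given in the sources used here. Each condition had 1 ChIP-seq library for each of the 4 antibodies (H3K9ac, H3K27ac, RNA pol II and H3K9me3), and all were called against 1 input library. With 1 library per group there is no spread between replicates, so no difference below was tested. Intervals are Wilson 95% confidence intervals that cover counting error only, and neighbouring regions are not independent draws.

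The deposited lists hold positions only, without peak height, score or read number, so the depth behind a call is unknown. For H3K27ac and H3K9ac, control was run on lane 1 and butyrate on lane 3, so lane and condition cannot be told apart in the selection. Both RNA pol II libraries ran on lane 3, and the H3K9me3 libraries on lane 3 (control) and lane 4 (butyrate). Markers of the rumen epithelium could not be checked in peak positions alone. Coordinates are on UMD3.1, and no genes or sequences are given because a genome or annotation of that assembly was not used here.

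Further sets of regions serve for comparison. Control-only regions mirror the selection, with control H3K27ac as their only peaks, and numbered 14269 (30.4% of all merged regions). Kept regions held H3K27ac of both conditions and numbered 21132, of which 16016 had no H3K9ac and 5116 (24.2%) had it. The remaining 1553 merged regions held H3K9ac without H3K27ac of both conditions. Butyrate-only regions made up 41.3% (40.7 to 41.9) of the regions called in a single condition without H3K9ac, a log2 ratio to the control-only regions of -0.51. This ratio depended on the lengths of the 2 H3K27ac lists, which held 32763 autosomal peaks after butyrate and 36963 in control. With the control list cut to its 32763 widest peaks and the butyrate list left whole, it was -0.04. The cut could move the balance only towards butyrate-only regions, here and below where lists of equal length are used.

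Each butyrate-only region consisted of exactly 1 peak. The set thus held 30.6% (30.1 to 31.1) of the autosomal butyrate H3K27ac peaks and 22.8% of the base pairs under them, 2.76 of 12.1 Mb. For the control list, 38.6% of the peaks were control-only. The other 22735 butyrate H3K27ac peaks overlapped an acetylation peak of another list and were dropped by the rule. Just inside the limit, 31 butyrate-only regions lay at most 10 bp from an acetylation peak of another list, the closest touching it, and 645 lay at most 100 bp away. Just outside, 64 dropped peaks overlapped another list by 10 bp or less, the smallest overlap being 1 bp, and 803 by 100 bp or less.

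The butyrate-only regions were narrow. Their median width was 247 bp, with the middle 50% of them between 213 and 306 bp and a maximum of 1088 bp, where the smallest width in any list was 200 bp. Regions of exactly 200 bp made up 13.1%, those of 201 to 300 bp 60.3%, those of 301 to 500 bp 23.6%, and 302 regions (3.01%) were wider. The control-only regions had nearly the same widths, with a median of 242 bp and 16.8% at 200 bp. Kept regions were wider, with medians of 427 bp without H3K9ac and 603 bp with it. A kept region is the union of at least 2 peaks. In kept regions made of 1 H3K27ac peak per condition, the single peaks were also wider than the butyrate-only peaks, with medians between 341 and 345.5 bp after butyrate and between 346.5 and 354 bp in control, depending on the classes found within 1 kb.

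**Figure D1:**
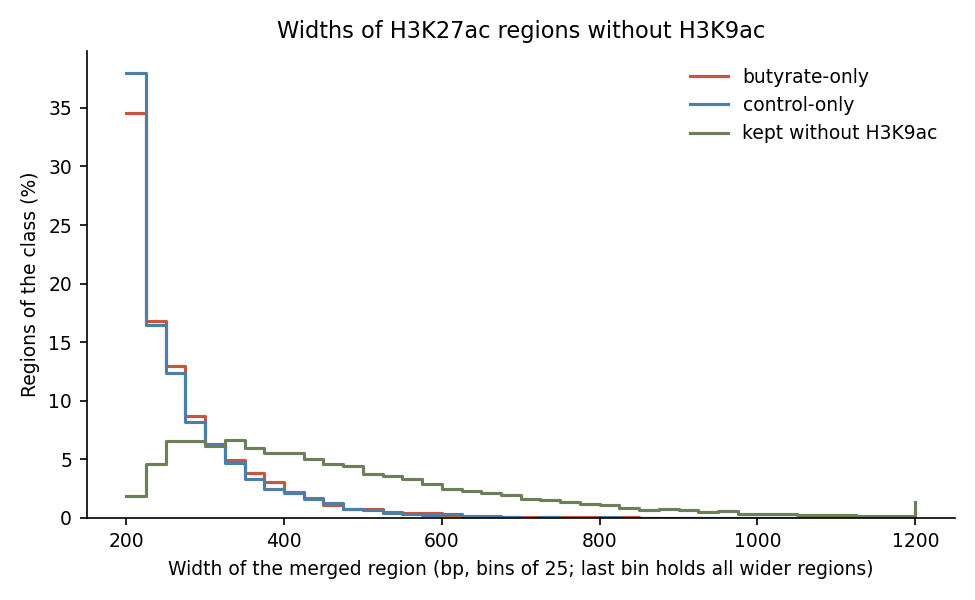
Share of the regions of each class (%) by width of the merged region (bp, bins of 25 bp). The curves of butyrate-only and control-only regions nearly coincide and fall steeply from the minimum width of 200 bp, with medians of 247 and 242 bp, while kept regions without H3K9ac have a median of 427 bp and spread over wider bins.

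The 5 widest butyrate-only regions differed in their surroundings. The widest, at chr16:47553455-47554542 (1088 bp), lay 137 bp from a kept region. The next, at chr2:94461773-94462773 (1001 bp), lay 207 bp from a control H3K27ac peak. The region at chr11:24264187-24265108 (922 bp) stood by itself, 317928 bp from the nearest control H3K27ac peak and 322187 bp from the nearest other butyrate-only region. Those at chr22:1024836-1025745 (910 bp) and chr5:26993375-26994260 (886 bp) were 779 and 469 bp from a kept region. Width was thus found both beside regions acetylated before treatment and far from any.

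Most butyrate-only regions lay close to chromatin that carried H3K27ac in both conditions. The median gap to the nearest kept region was 3884 bp, and the middle 50% of gaps ran from 600 bp to 23057 bp. A kept region was found within 500 bp of 22.7% of them, within 1 kb of 32.2%, within 10 kb of 63.1% and within 100 kb of 92.0%. Kept regions without H3K9ac lay nearer to another kept region, at a median of 1514.5 bp and with 69.6% within 10 kb. The nearest control H3K27ac peak, kept or not, lay at a median of 1367 bp from the butyrate-only regions, with 44.2% within 1 kb and 76.7% within 10 kb. These peaks include those of all kept regions and others besides, so a shorter gap is largely built in. H3K9ac of either condition was farther off, at a median of 31369 bp, with 9.29% within 1 kb and 30.6% within 10 kb. The rule excludes overlap with H3K9ac, and its lists were much shorter. They held 4075 autosomal peaks in control and 4255 after butyrate, against 36963 for control H3K27ac. Kept regions without H3K9ac were also far from H3K9ac, at a median of 27091.5 bp and with 34.5% within 10 kb.

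Control-only regions lay somewhat farther from kept regions, at a median of 5958 bp and with 57.8% (57.0 to 58.7) within 10 kb. Within 10 kb of an H3K9ac peak were 28.5% (27.8 to 29.3) of them, against 30.6% (29.7 to 31.5) of the butyrate-only regions. Counting both single-condition classes, butyrate-only regions were 44.9% (43.8 to 46.1) of the 7178 regions at most 1 kb from a kept region and 38.1% (37.1 to 39.0) of the 9711 regions more than 10 kb away. The share was 44.5% for gaps up to 200 bp and 45.7% between 501 bp and 1 kb, then 43.0% between 1 and 5 kb and 36.7% between 50 and 100 kb. With H3K27ac lists of equal length the near and far shares were 52.1% (50.9 to 53.3) and 46.5% (45.5 to 47.6), so both moved up and the order stayed.

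**Figure D2:**
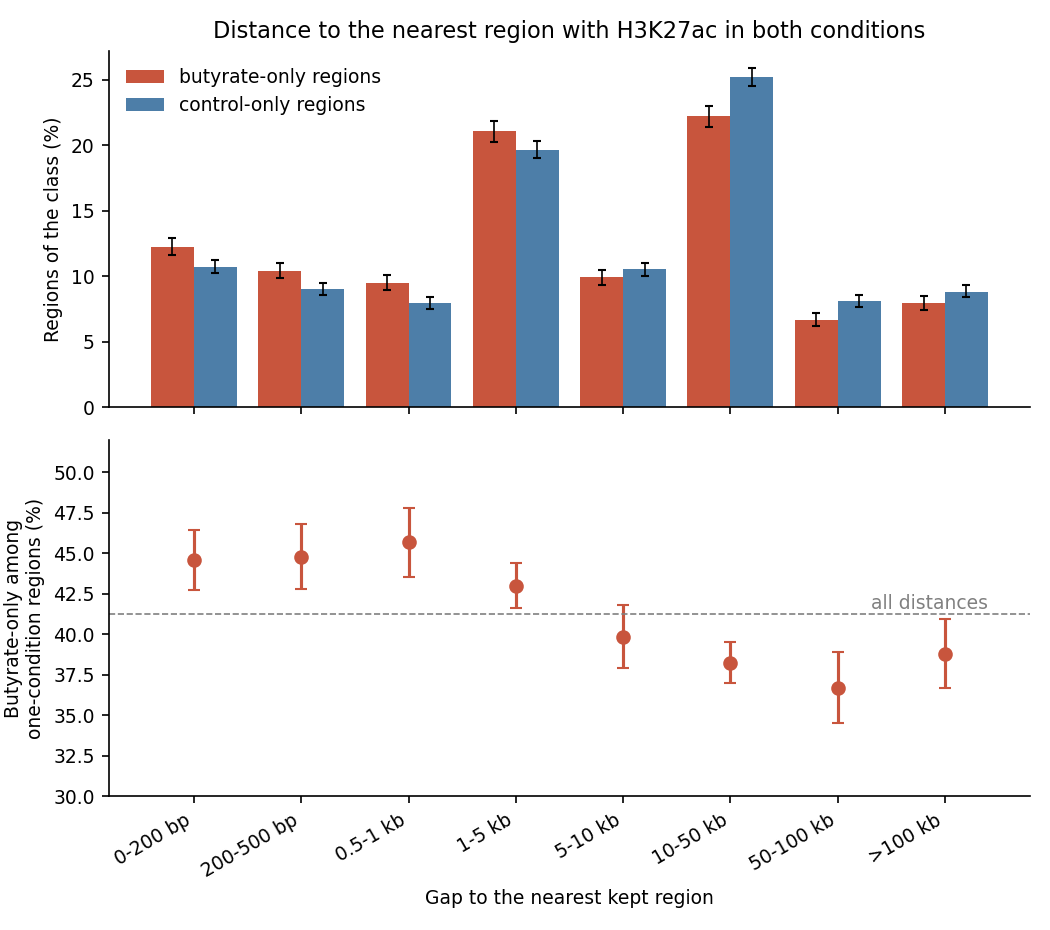
Upper panel, share of butyrate-only and control-only regions (%, bars with Wilson 95% intervals) by gap to the nearest kept region. Lower panel, butyrate-only regions as a share of both classes (%, points with Wilson 95% intervals, axis from 30%) in the same bins, with the dashed line at 41.3% for all distances, which is exceeded in each bin up to 5 kb and undershot in each bin beyond.

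On the scale of 10 kb, 1999 butyrate-only regions (19.9%) had kept regions on both sides and 43.2% on 1 side. The corresponding shares of control-only regions were 17.2% and 40.7%. Among the 6332 butyrate-only regions with a kept region within 10 kb, the nearest one held H3K9ac for 1408 (22.2%, 21.2 to 23.3), where 24.2% of all kept regions held it. For control-only regions this was 22.8% (21.9 to 23.7).

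The H3K27ac peaks inside neighbouring kept regions had about the same width in both conditions. Among kept regions made of 1 peak per condition, 2618 had a butyrate-only region within 1 kb and no control-only region. Their butyrate peak was the wider one in 49.0% (47.1 to 50.9), with median widths of 345.5 bp after butyrate and 346.5 bp in control. Of 3235 such regions beside control-only regions the butyrate peak was wider in 44.9% (43.2 to 46.6), and of 12629 with neither class within 1 kb in 45.6% (44.8 to 46.5). Kept regions beside butyrate-only regions thus showed a slightly larger share of peaks wider after butyrate and no shift in their median width.

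A small group of butyrate-only regions was remote. More than 1 Mb from any control H3K27ac peak lay 13 of them. The farthest was at chr12:7338642-7338842 (201 bp), 3832751 bp from a control H3K27ac peak. The pair at chr18:29788474-29788682 and chr18:29807055-29807259 lay 3232010 and 3250591 bp away, with 18372 bp between them. Another pair, at chr17:38814487-38814707 and chr17:38815068-38815345, was only 360 bp apart and 1945789 and 1945151 bp from control H3K27ac. None of these 5 regions was wider than 278 bp or overlapped an RNA pol II peak of either condition. Neither sets them apart, since 54 of all 10028 butyrate-only regions overlapped such a peak and the upper quartile of width was 306 bp. Remote control-only regions were not counted in the same way.

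Butyrate-only regions were found near one another, but to a similar degree as control-only regions. The median gap to another butyrate-only region was 11756 bp, 17.4% had one within 1 kb and 47.3% (46.3 to 48.3) within 10 kb. A control-only region was within 10 kb of 50.8% of them. Control-only regions had a neighbour of their own class within 10 kb in 49.8% (49.0 to 50.6), at a median of 10146 bp. This order turned with H3K27ac lists of equal length, where the values were 49.8% for butyrate-only and 44.6% for control-only regions. When peaks at most 1 kb apart were merged, which removes close neighbours, they were 20.7% and 24.0%.

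Along the chromosome, the regions next to a butyrate-only region were again butyrate-only in 24.4% of cases, against 21.3% of all merged regions. They were control-only in 30.4%, the same as among all regions, kept without H3K9ac in 32.3% (34.1% of all) and kept with H3K9ac in 9.63% (10.9% of all). Neighbours of control-only regions were control-only in 33.5% and butyrate-only in 21.4%. Both classes thus had their own class next to them about 3 percentage points above its share of all regions.

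When all merged regions at most 10 kb apart were chained into domains, 6632 butyrate-only regions (66.1%) fell into a domain with a kept region. Another 2178 (21.7%) were in domains of butyrate-only regions alone, of which 1594 (15.9% of the set) were solitary, and 1218 (12.1%) were in domains with other classes but no kept region. Of the control-only regions 61.5% were in a domain with a kept region and 29.1% in domains of their own class alone.

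Runs of butyrate-only regions, at most 10 kb apart with no other merged region in between, were mostly short. There were 7107 single regions, 1058 pairs, 195 runs of 3, 42 of 4, 8 of 5 and 2 of 6. The 247 runs of 3 or more held 805 regions (8.03%). Control-only regions formed 440 such runs, which held 1434 of them.

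The 2 runs of 6 differed in density. At chr4:70532027-70537577, 6 peaks of 200 to 449 bp followed one another over 5551 bp with gaps of 245 to 1503 bp, so that 1760 bp of the span lay under peaks. This run lay 1224 bp from a kept region, and the nearest RNA pol II peaks were 1167870 bp (butyrate) and 140031 bp (control) away. At chr3:18747031-18767181, 6 peaks of 203 to 292 bp were spread over 20151 bp with gaps of 62 to 9348 bp. A control H3K27ac peak lay 105 bp from that run, and a butyrate RNA pol II peak overlapped its span but none of its 6 regions.

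Of the runs of 5, that at chr19:46092457-46112596 covered 20140 bp, and 1 of its regions lay under a butyrate RNA pol II peak. Its nearest control RNA pol II peak was 648067 bp away. The run at chr16:65776129-65794932 consisted of peaks of 200 to 217 bp and the run at chr7:8853794-8867277 of peaks of 203 to 273 bp. The latter lay 12615 bp from a butyrate RNA pol II peak and 2343976 bp from a control one. These 3 had the longest spans of the 8 runs of 5. Of all 10 runs of 5 or more, 2 were overlapped by a butyrate RNA pol II peak and none by a control one. The butyrate RNA pol II list was 1.85 times as long as the control list. Overlap was counted over the whole span of a run, runs of control-only regions were not counted, and the difference was not tested.

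In windows of 1 Mb the butyrate-only regions followed the density of acetylation. Of 2523 windows, 861 held none, 869 held 1 to 4, 455 held 5 to 9, 279 held 10 to 19 and 59 held 20 or more. The 59 densest windows held 1363 regions. The 3 windows with most regions were all on chromosome 11 and were also rich in the other classes. Between 25 and 26 Mb there were 34 butyrate-only, 33 control-only and 66 kept regions. Between 71 and 72 Mb there were 34, 40 and 56, and between 99 and 100 Mb 29, 29 and 69. With H3K27ac lists of equal length these windows held 36 butyrate-only and 25 control-only, 34 and 28, and 32 and 23 regions, so that butyrate-only regions were then the more numerous in all 3. Across the 2523 windows the count of butyrate-only regions had a Pearson correlation of 0.82 (Spearman 0.84) with control-only and of 0.82 (0.85) with kept regions, values that share the lists and the uneven density of peaks along the genome.

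More butyrate-only than control-only regions were found in 508 windows and fewer in 1215. In 800 windows the counts were equal, in 206 of them above 0. The windows with the largest differences were picked after their values were seen. On chromosome 4 between 70 and 71 Mb there were 26 butyrate-only, 7 control-only and 18 kept regions, 20 of the 26 lay within 10 kb of a kept region, and all lay between positions 70298577 and 70719377. The window holds the dense run of 6 described above. In it the H3K27ac lists had 47 peaks after butyrate and 26 in control, while H3K9ac had 3 in each condition.

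On chromosome 7 between 92 and 93 Mb there were 20 butyrate-only, 3 control-only and 19 kept regions, with no RNA pol II or H3K9me3 peak of either condition. On chromosome 12 between 48 and 49 Mb there were 26, 11 and 14, with 2 butyrate RNA pol II peaks and none in control. With H3K27ac lists of equal length the butyrate-only and control-only counts were 27 and 5 on chromosome 4, 21 and 1 on chromosome 7 and 28 and 5 on chromosome 12. In the opposite direction, chromosome 25 between 1 and 2 Mb held 14 butyrate-only and 43 control-only regions, and chromosome 14 between 1 and 2 Mb held 3 and 28. With lists of equal length these counts were 16 and 39 on chromosome 25 and 6 and 26 on chromosome 14. These windows were picked for their difference, so their place off the general pattern, in which both classes rose together, follows from that choice.

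**Figure D3:**
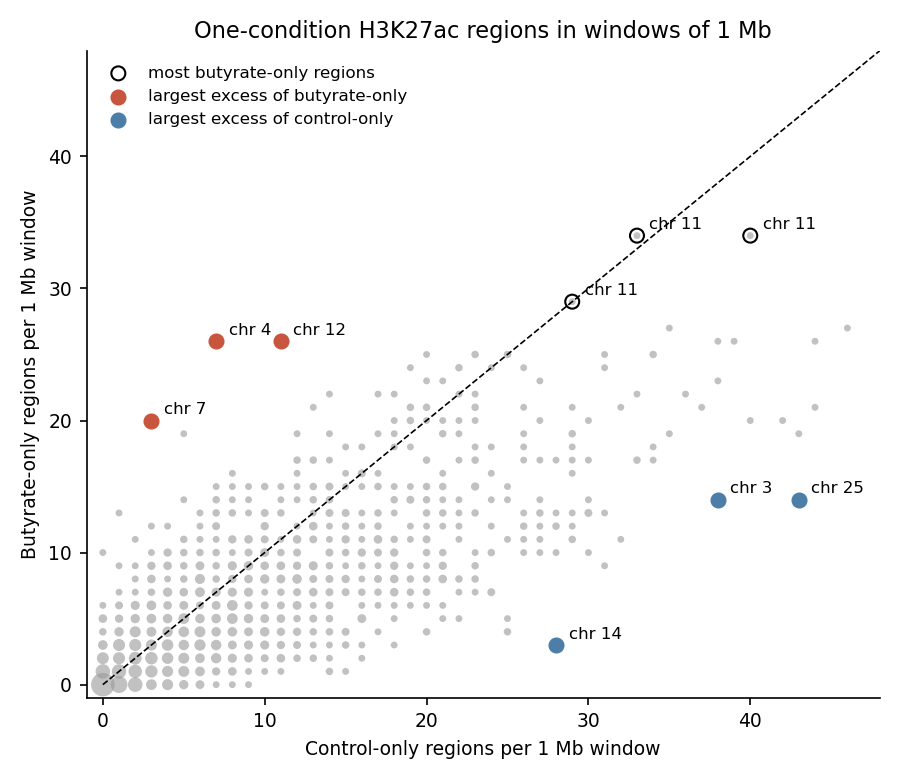
Butyrate-only against control-only regions per window of 1 Mb, with the area of grey points growing with the number of windows and the dashed line marking equal counts. The 3 windows on chromosome 11 with most butyrate-only regions (29 to 34) lie near the line with the lists as deposited, while windows on chromosomes 4, 7 and 12 lie far above it and windows on chromosomes 25, 14 and 3 far below.

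The share of butyrate-only among single-condition regions was 48.0% (42.3 to 53.7) in windows without a kept region, which held 294 such regions, and 39.1% (37.6 to 40.7) in windows with 41 or more kept regions. In the bins between them it ran from 39.7% to 42.8% without a steady order.

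Across chromosomes the mean density was 3.998 butyrate-only regions per Mb. The densest chromosomes were 19, with 525 regions (8.20 per Mb), and 25, with 281 (6.55 per Mb). The sparsest were 27, with 96 (2.19 per Mb), and 6, with 266 (2.23 per Mb). The densities per chromosome had a Pearson correlation of 0.96 with those of control-only regions and of 0.95 with those of kept regions over 29 chromosomes, which share the same lists. Chromosomes were thus ordered similarly by all 3 classes.

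As a share of single-condition regions, butyrate-only regions were lowest on chromosome 18, at 35.2% (32.4 to 38.2), followed by chromosome 7 at 37.7%. They were highest on chromosome 20, at 47.8%, and chromosome 4, at 46.7%. Butyrate-only regions outnumbered control-only regions on none of the 29 chromosomes. With H3K27ac lists of equal length they did so on 14, and the shares were 43.5% on chromosome 18 and 56.1% on chromosome 20, which remained the lowest and the highest. The share had a Pearson correlation of -0.54 (Spearman -0.44) with the density of kept regions, and of -0.40 (-0.32) without the 2 chromosomes densest in kept regions.

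**Figure D4:**
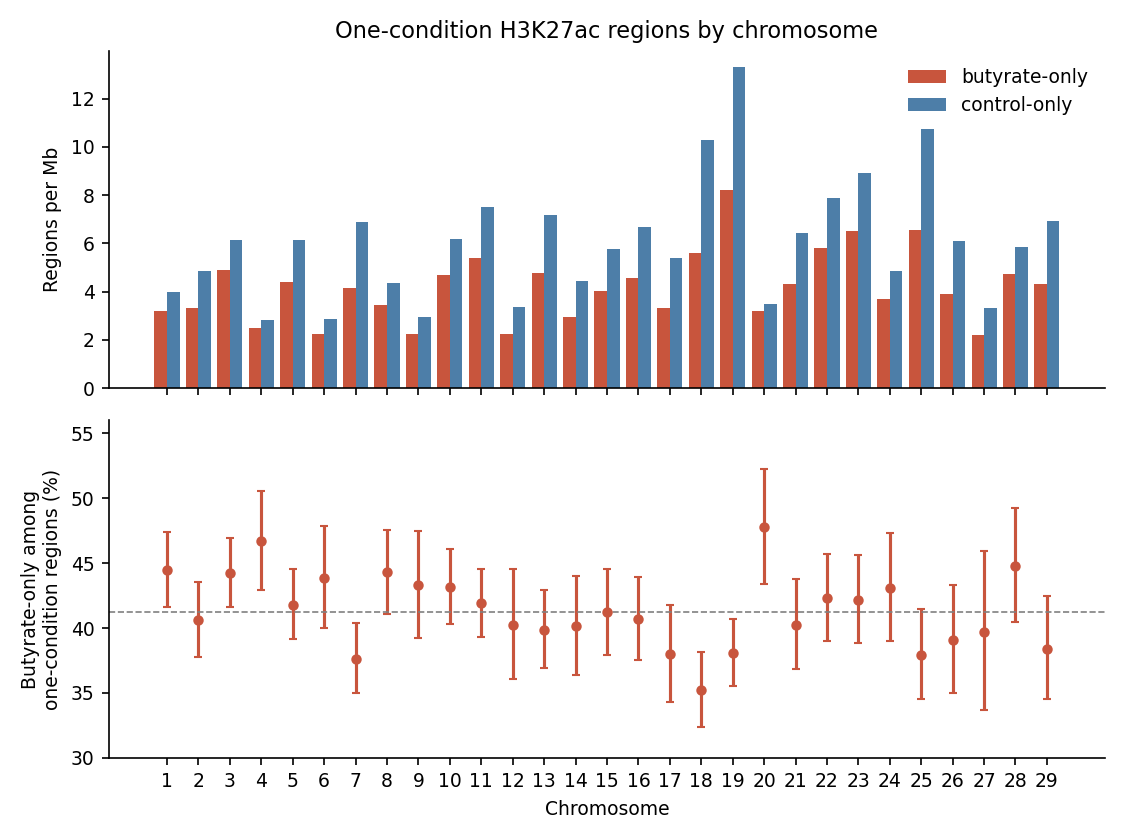
Upper panel, butyrate-only and control-only regions per Mb on chromosomes 1 to 29. Lower panel, butyrate-only regions as a share of both classes (%, Wilson 95% intervals, axis from 30%), with the dashed line at 41.3% for all chromosomes together; chromosome 18 is lowest at 35.2% and chromosome 20 highest at 47.8%.

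RNA pol II and H3K9me3 were not used in the selection. Few butyrate-only regions carried either, and 9967 of the 10028 overlapped no peak of these antibodies in any condition. The same held for 14191 of the 14269 control-only regions, so this lack did not set the butyrate-only regions apart from that class. A butyrate RNA pol II peak overlapped 36 regions, 0.359% (0.259 to 0.497), against 1.03% of all merged regions. A control RNA pol II peak overlapped 19, 0.189% (0.121 to 0.296), against 0.602% of all merged regions. Control-only regions had 0.273% (0.2 to 0.373) and 0.168% (0.113 to 0.250), and kept regions without H3K9ac had 0.993% and 0.593%. RNA pol II was thus rarer over butyrate-only than over kept regions in both conditions, and the intervals of the single-condition classes overlapped.

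Because kept regions were wider, the comparison was also made within width classes. Among regions of 301 to 500 bp, butyrate RNA pol II overlapped 0.633% (0.384 to 1.04) of the 2371 butyrate-only regions and 0.926% (0.727 to 1.18) of the 7021 kept regions without H3K9ac. Among regions of 201 to 300 bp the shares were 0.215% (0.126 to 0.368) of 6043 and 0.348% (0.194 to 0.622) of 3162. Within a width class the intervals of the classes overlapped.

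RNA pol II was nearby more often than it overlapped. Within 1 kb, butyrate RNA pol II was found for 116 regions (1.16%, 0.965 to 1.39) and control RNA pol II for 44 (0.439%, 0.327 to 0.588), against 1.95% and 1.10% of all merged regions. Within 10 kb the numbers were 518 (5.17%, 4.75 to 5.62) and 233 (2.32%, 2.05 to 2.64), against 5.84% and 2.85% of all merged regions. The butyrate-only regions thus lay below all merged regions at both distances. For control-only regions the shares within 10 kb were 4.47% (4.14 to 4.82) and 2.07% (1.85 to 2.31). The butyrate count was 1.89 times the control count for overlap, 2.64 times within 1 kb and 2.22 times within 10 kb. Within 1 kb the ratio was 1.89 for control-only regions, 1.65 for kept regions without H3K9ac and 1.77 for all merged regions, all below that of the butyrate-only regions, a difference that was not tested. Within 10 kb it was 2.16 for control-only regions and 2.05 for all merged regions. The whole lists, at 1242 and 673 autosomal peaks, had a ratio of 1.85.

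RNA pol II was nearest where a kept region was near. Butyrate RNA pol II lay within 10 kb of 7.53% (6.67 to 8.49) of the 3226 butyrate-only regions with a kept region within 1 kb, of 6.28% (5.48 to 7.19) of those 1 to 10 kb from one, and of 2.16% (1.74 to 2.69) of the 3696 without one within 10 kb. For control RNA pol II these shares were 3.44%, 2.80% and 0.947%. The share was lowest without a kept region within 10 kb in both conditions, while the intervals of the nearer classes overlapped.

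Of the butyrate-only regions, 54 overlapped RNA pol II of either condition, 35 after butyrate only, 18 in control only and 1 in both. Of the control-only regions 57 did, 33 after butyrate only, 18 in control only and 6 in both. The same split was not counted over kept or all merged regions. The 36 butyrate-only regions under butyrate RNA pol II were spread over 21 chromosomes and had a median width of 305 bp. They included 13 at most 1 kb from a kept region and 11 more than 10 kb away. The widest were at chr20:59241906-59242503 (598 bp, 164056 bp from a kept region), chr14:14583104-14583657 (554 bp, 209121 bp), chr3:20143965-20144487 (523 bp, 226 bp), chr16:42634082-42634530 (449 bp, 284 bp) and chr14:17604919-17605347 (429 bp, 1708 bp). Remote and adjacent regions were both among them.

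**Figure D5:**
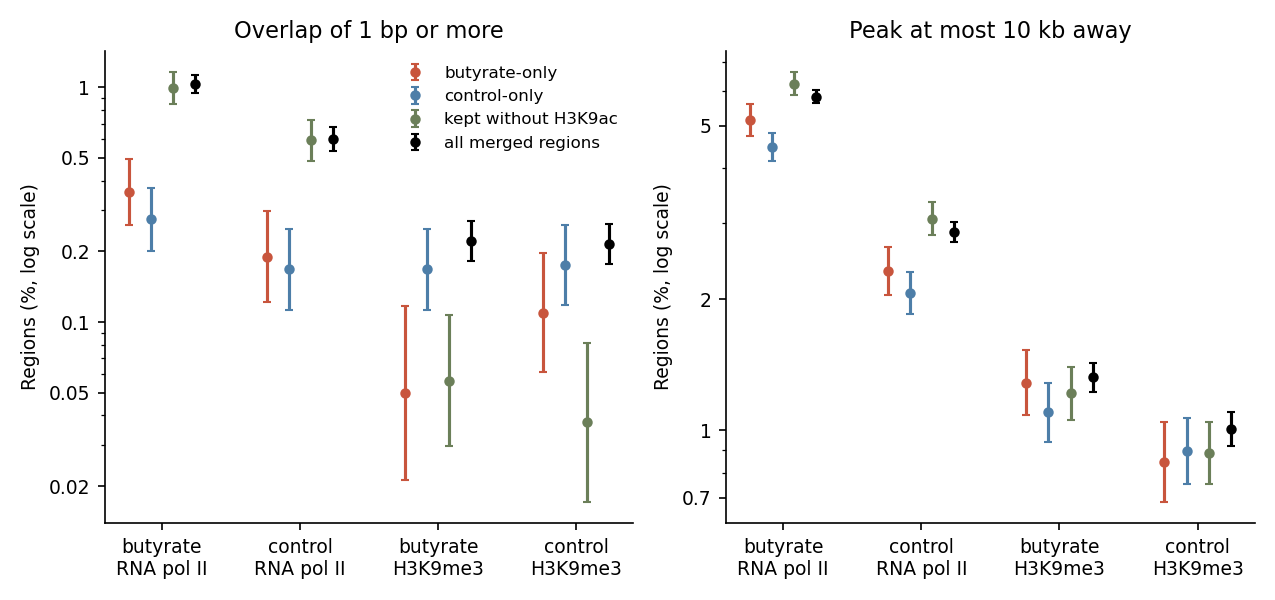
Share of regions (%, log axis, points with Wilson 95% intervals) that overlap an RNA pol II or H3K9me3 peak (left) or have one at most 10 kb away (right), for butyrate-only, control-only, kept regions without H3K9ac and all merged regions. For overlap with RNA pol II both single-condition classes lie below the kept regions, and with H3K9me3 the intervals are wide because 5 and 11 butyrate-only regions carry it.

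H3K9me3 overlapped 5 butyrate-only regions after butyrate, 0.0499% (0.0213 to 0.117), against 0.221% of all merged regions. In control it overlapped 11, 0.110% (0.0613 to 0.196), against 0.215% of all merged regions. Control-only regions had 24 (0.168%, 0.113 to 0.250) and 25 (0.175%, 0.119 to 0.259). Kept regions without H3K9ac had 9 (0.0562%) and 6 (0.0375%). Within 10 kb, H3K9me3 was found for 1.29% of the butyrate-only regions after butyrate and 0.848% in control, against 1.32% and 1.01% of all merged regions. It was found for 1.10% and 0.897% of the control-only regions, with overlapping intervals.

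The butyrate-only regions under H3K9me3 of either condition numbered 13, of which 3 carried it in both conditions, and 4 of the 13 were on chromosome 14. The share of all H3K9me3 peaks on that chromosome was not counted, so no concentration there can be read from this. RNA pol II peaks overlapped 6 of the 13. The region at chr14:14583104-14583657 carried H3K9me3 in both conditions and butyrate RNA pol II, and that at chr14:72581985-72582264 carried H3K9me3 in both conditions and control RNA pol II. The region at chr24:54394951-54395175 carried H3K9me3 in both conditions and no RNA pol II. Those at chr13:64721816-64722057 and chr6:110192025-110192244 carried H3K9me3 after butyrate only. Among control-only regions, 38 carried H3K9me3, 11 of them in both conditions, and 17 of the 38 also carried RNA pol II. All libraries were called against the same input, and its part in peaks shared by several antibodies was not tested.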

How the data were processed

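ChIP-seq peak lists of 8 libraries were used. Per the methods of the study and the submitters' processing notes, the authors aligned reads with BWA to the bovine assembly UMD3.1 (named UMD3.1.1 in the methods) and called peaks per library with MACS2 at default settings against the input, and Trim Galore 0.4.1 is also named. The series text calls the 75 nt reads single-end and the methods paired-end. The deposited lists hold chromosome, start and end, taken as 1-based with both ends included.

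Acetylation peaks on chromosomes 1 to 29 were merged at 1 bp of overlap and classed by the lists they held (Python 3.11.15, pandas 2.3.3, numpy 2.4.6). Gaps were measured between edges, and windows of 1 Mb were assigned by midpoints. The scripts were tested on simulated peaks. The members and the regions compared were chosen with earlier results of these data known. Regions named were the 5 widest, the 5 farthest from control H3K27ac, the 5 longest runs (by number of regions, then span), up to 5 under butyrate RNA pol II and under H3K9me3, the extreme chromosomes and the 3 densest windows. Alternatives were regions merged across 1 kb, no 200 bp peaks, lists of equal length, H3K9ac disregarded, X included, and other distances. For lists of equal length the control H3K27ac list was cut to its widest peaks, and the butyrate list stayed whole.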

Additional observations from a re-analysis of the deposited data

Results flagged for a closer look

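Chromosome X lies outside the comparisons above and was flagged because it also held regions of the same kind. By the same rule X had 172 butyrate-only regions among its 795 merged regions (21.6%), or 1.16 per Mb, less than on any of chromosomes 1 to 29. It had 313 control-only regions, so butyrate-only regions were 35.5% (Wilson 95% interval 31.3 to 39.8) of those called in a single condition. Adding the X regions raised the number of butyrate-only regions under H3K9me3 from 5 to 20 after butyrate and from 11 to 28 in control. The number under butyrate RNA pol II rose from 36 to 47. Butyrate-only regions on X thus carried H3K9me3 more often than those on chromosomes 1 to 29. The share over all merged regions on X was not counted. Of 2430 butyrate and 2242 control H3K9me3 peaks, only 1710 and 1536 were on chromosomes 1 to 29. Whether the higher share is particular to the butyrate-only regions of X therefore cannot be told. The X and autosomal values were not tested against each other.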

How the results depend on the processing

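Of 52 alternative values for the counts, shares and log2 ratio, 36 stayed within the limits set around the reported value and 16 moved outside. Only the log2 ratio has a sign that could turn, and it stayed negative under each alternative. Control-only regions thus stayed the larger class, with 11313 against 10980 butyrate-only regions for lists of equal length. The size of the difference depended on list length, and the cut to equal length removed control peaks only. With lists of equal length the order of butyrate-only and control-only regions turned for clustering with their own class (49.8% and 44.6%), for chromosome 11 between 71 and 72 Mb (34 and 28), for regions within 1 kb of a kept region (butyrate-only 52.1%) and on 14 chromosomes. Merging across 1 kb left 4882 butyrate-only regions, a log2 ratio to control-only regions of -0.72, 44.7% within 10 kb of a kept region and 20.7% within 10 kb of another butyrate-only region. The log2 ratio was -0.42 without 200 bp peaks and -0.043 with H3K27ac lists of equal length. With limits of 5 and 50 kb, 53.2% and 85.3% had a kept region in reach and 37.1% and 74.2% another butyrate-only region. At 1 kb instead of overlap, butyrate RNA pol II was at 1.16%, control RNA pol II at 0.439% and butyrate H3K9me3 at 0.12%. With X included, H3K9me3 overlapped 0.196% after butyrate and 0.275% in control, and most of these overlaps were on X. The share near a kept region stayed above that of control-only regions when regions were merged across 1 kb (44.7% and 41.3%), without 200 bp peaks (62.4% and 57.5%), with lists of equal length (62.3% and 58.0%) and with H3K9ac disregarded (63.4% and 58.0%). No paired analysis was possible because there was 1 library per group, and no replicate could be left out. Without scores or read numbers, a region missing from a list cannot be told from one just under the caller's threshold.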
